A study of Mus musculus with 2 samples.

Results

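Klf2, S1pr1, S1pr5, Ccr7, Lef1, Tcf7, Il7r, Cxcr4 and Itgae are 9 genes that set where lymphocytes go and whether they stay naive or become resident in tissue. They were taken as a named list, 9 of the 31053 genes counted, and were described in T, natural killer (NK), B and dendritic cells of 2 single-cell libraries. The libraries hold unique molecular identifier (UMI) counts of cells sorted for high CD45, the leukocyte surface marker, from the tumour region of C57BL/6 mice carrying GL261, a mouse glioma line, injected into the brain. The metformin library came from mice given metformin in drinking water and the control library from mice given control water, both taken on day 20. Each group is 1 library. Neither the labels nor the files give the metformin dose, the sort gates, or the sex, age and number of the mice.

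The S1pr1 receptor reads sphingosine 1-phosphate, which is high in blood and lymph, and lets lymphocytes leave tissue. Klf2 is a transcription factor that drives S1pr1 in mouse T cells and is lost on activation, while the membrane protein Cd69 pulls S1pr1 off the surface. Ccr7 guides cells to lymph nodes along Ccl19 and Ccl21. Tcf7 and Lef1 are DNA-binding partners of beta-catenin and mark naive and memory T cells, and Il7r carries the survival signal of interleukin 7. Itgae, also called CD103, pairs with Itgb7 to hold cells to E-cadherin, and in the brain marks T cells that stay in the tissue.

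The metformin library held 5473 barcodes and 47142356 UMIs, and the control library 6174 barcodes and 49651404 UMIs. After filters and doublet removal, 4569 metformin and 5373 control cells remained, of which 2827 and 3280 were T, NK, B or dendritic cells. The libraries shared 9 barcodes, 8 of them among retained cells. Classes were rebuilt by clustering without the 9 genes and the gene lists used below, so they may differ from classes of the study. Where no marker list named a T cell cluster, it is called by leading genes: Igfbp4/Dapl1, Nr4a3, Ifit (interferon-response genes) and Klra1/Klra6 T cells. The Nr4a3 cluster was led by Il17a, a gene of the gamma-delta T marker list, ahead of Nr4a3. The larger Klra1/Klra6 cluster had Trdc, also on that list, among its 10 leading genes. Levels are given as CPM, UMI counts of a gene scaled to the same total of UMIs in every class and library. The 6 dendritic clusters other than mature and plasmacytoid ones are pooled as conventional dendritic-like cells (cDC). Only 2 of the 6, with 62 metformin and 38 control cells, had a listed dendritic marker among their 10 leading genes, and 1, of 4 cells in each library, was led by cell cycle genes. The Cxcl10/Tgm2 and Apod/Cd209d clusters had none, but over both libraries they carried Cd209a, a dendritic lectin, at 554 and 730 CPM, against 3.36 in macrophages. Apoe, abundant in macrophages, was at 145 and 34.8 in them, against 21491 in macrophages. Ly6c2, on the monocyte marker list, was at 486 and 2846, against 827 in monocytes and 1261 in macrophages. The monocyte class is the cluster led by Ear2 and Ace, and its Ly6c2 was below that of macrophages. The Il1r2/Ly6i cluster, of 44 metformin and 29 control cells, also had no listed marker. Its Cd209a was at 81.8, Apoe at 201 and Ly6c2 at 325, so the name is uncertain for it. The 7 T cell markers were all detected in Klra1/Klra6 T cells, at a summed 3868 CPM in metformin and 4239 CPM in control cells, against 6947 and 7236 CPM in CD8 T cells. The same list stood at 480 CPM in metformin and 608 CPM in control NK cells and at 121 and 71.7 CPM in B cells.

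With 1 library per group there is no test, and intervals are exact 95% intervals that cover counting error only, not the spread between mice or cells. UMI counts of different genes are not set against each other, since capture differs between transcripts. In these data fewer cells of a kind within a class and less RNA per cell cannot be told apart.

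The gene for the S1pr1 receptor, at chr3:115710433-115715072 on the minus strand of mm10, was highest in Igfbp4/Dapl1 T cells in both libraries. It reached 259 CPM in metformin cells (interval 227 to 295) and 215 in control cells (187 to 245), and both values stood above the next class beyond counting error. B cells, Klra1/Klra6 T cells and Ifit T cells followed, between 124 and 158 in metformin and between 123 and 140 in control cells, and neighbours among them did not differ beyond counting error. CD8 T cells were far lower, at 25.9 in metformin and 33.9 in control cells. S1pr1 UMIs were nearly missing from cDC, with 1 UMI in metformin and 0 in control cells. Shares of cells were counted after thinning every cell to 4000 UMIs, which left out the shallower cells, 307 metformin and 449 control cells of the T, NK, B and dendritic classes, so a thinned share is one of the deeper cells. An S1pr1 UMI was found in 62.7% of metformin and 48.9% of control Igfbp4/Dapl1 T cells (77.4% and 67.6% before thinning). Macrophages, whose S1pr1 level was 10.5 CPM in metformin and 5.28 CPM in control cells, gave 3.84% and 2.08% by the same count. Their median depth was 12066.5 and 10388 UMIs, against 6824 and 7140 in Igfbp4/Dapl1 T cells.

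Klf2, at chr8:72319033-72321656 on the plus strand, was found in every class. It was highest in Igfbp4/Dapl1 T cells at 846 CPM in metformin and 887 in control cells. Klra1/Klra6 T cells had 681 in metformin and 471 in control cells, NK cells 621 and 461, and B cells 622 and 454. Plasmacytoid dendritic cells (pDC, 33 metformin and 18 control cells) had 435 and 437. Cycling T cells had the lowest value of the 15 classes in both libraries, at 69.1 in metformin and 101 in control cells, and CD8 T cells had 117 in both.

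S1pr5, at chr9:21242912-21248443 on the minus strand, encodes a second sphingosine 1-phosphate receptor that mouse NK cells use to leave bone marrow. It was a gene of NK cells here, with 21.5 CPM in metformin and 17.7 in control cells, and no other lymphoid or dendritic class passed 4. Among NK clusters the Ncr1/Klra4 cluster held 35.6 in metformin and 28.3 in control cells. The monocyte class, led by Ear2 and Ace, was higher still, at 114 in 47 metformin cells and 66.9 in 90 control cells. The whole of its signal rests on 144 metformin and 140 control UMIs.

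Ccr7, at chr11:99144196-99155077 on the minus strand, was by far highest in mature dendritic cells, the Fscn1-positive cells that carry antigen to lymph nodes. It stood at 3922 CPM in 64 metformin cells and 3311 in 43 control cells. B cells came next in metformin at 286, with 216 in control cells. Igfbp4/Dapl1 T cells had 242 in metformin and 282 in control cells. Among T cells the next were CD4 T cells at 87.6 in metformin and 133 in control cells, while CD8 T cells had 7.82 and 13.9. After thinning, 96.3% of metformin and 100% of control mature dendritic cells had a Ccr7 UMI (96.9% and 100% before), and microglia, which served as the background, gave 0.573% of metformin and 0.952% of control cells. Median depth was 8330.5 UMIs in metformin and 6362 in control mature dendritic cells, and 7577 and 7047 in microglia.

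Lef1, at chr3:131110471-131224356 on the plus strand, and Tcf7, at chr11:52252371-52283014 on the minus strand, had the same 3 T cell classes at the top. Lef1 reached 483 CPM in metformin and 565 in control Igfbp4/Dapl1 T cells, then 141 and 138 in Klra1/Klra6 T cells and 83.3 and 92.4 in Ifit T cells. Tcf7 reached 391 in metformin and 438 in control Igfbp4/Dapl1 T cells, then 248 and 212 in Klra1/Klra6 T cells and 246 and 201 in Ifit T cells. Regulatory T cells (Treg), marked by Foxp3, had Lef1 at 39.0 in metformin and 46.4 in control cells and Tcf7 at 20.4 and 34.2, the lowest Tcf7 of the T cell classes outside the cycling cells. Thinned shares were 73.6% and 77.9% for Lef1 and 76.4% and 75.6% for Tcf7 in metformin and control Igfbp4/Dapl1 T cells (83.9% and 92.1%, and 86.3% and 90.6%, before thinning). Thinned microglia gave 0.344% and 0.346% for Lef1 and 0.687% and 0.519% for Tcf7. Overlapping genes that the files also count lie within both loci, Gm43352 at Lef1 and Gm26551 and A630014C17Rik at Tcf7, and neither labels nor files say how the counting divided reads among them.

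The pair parted in dendritic cells. Mature dendritic cells had Tcf7 at 128 CPM in metformin and 104 in control cells, from 70 UMIs in 23 cells and 34 UMIs in 11 cells, with Lef1 at 0 UMIs in both libraries. The T cell marker list summed to 47.6 CPM in metformin and 39.9 in control mature dendritic cells, with Cd3e at 5.49 in metformin and 3.07 in control cells and Trac at 5.49 and 9.20. The cDC class had Tcf7 at 2.31 in metformin and 0 in control cells. The same mature dendritic cells carried Il7r at 253 in metformin and 245 in control cells.

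Il7r, at chr15:9505788-9530176 on the minus strand, was highest in gamma-delta T cells, marked by Trdc, at 1187 CPM in 44 metformin cells and 1131 in 46 control cells. Igfbp4/Dapl1 T cells followed with 561 in metformin and 568 in control cells. The other T cell classes except cycling T cells lay between 213 and 348 in metformin and between 193 and 372 in control cells. NK cells had 22.8 in metformin and 42.1 in control cells, but the small Gzmc/Klrb1b NK cluster had 238 in 25 metformin cells and 217 in 35 control cells. pDC also carried it, at 292 and 250. B cells had 3.73 in metformin and 5.88 in control cells, and a thinned share of 1.99% and 1.79%, against 97.5% and 97.6% of gamma-delta T cells (95.5% and 95.7% before thinning). Median depth was 5161 and 5603 in B cells, and 6855.5 and 6572 in gamma-delta T cells.

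Cxcr4, at chr1:128588199-128592293 on the minus strand, encodes the receptor of Cxcl12. Among lymphoid and dendritic classes it was highest in B cells at 182 CPM in metformin and 171 in control cells. NK, gamma-delta T, Nr4a3 T cells and cDC lay just below, between 98.1 and 120 in metformin and between 111 and 124 in control cells, and neighbours among them did not differ beyond counting error. Within cDC the Il1r2/Ly6i cluster had 230 in metformin and 251 in control cells, and the Xcr1 cluster 24.9 and 37.7. CD8 T cells were lowest, at 10.4 in metformin and 17.9 in control cells. Only 49.3% of metformin and 56.3% of control Cxcr4 UMIs were in these classes. Macrophages had 253 in metformin and 218 in control cells, and monocytes 378 and 253.

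Itgae, at chr11:73090583-73147446 on the plus strand, is overlapped on the other strand by Haspin, which the files also count. It was highest in cDC at 154 CPM in metformin, with 109 in control cells, and in Treg at 144 in control, with 112 in metformin cells. Gamma-delta T cells had 92.4 in metformin and 96.2 in control cells, and CD8 T cells 64.7 and 73.4. Within cDC it was highest in the cluster led by Xcr1, the cross-presenting type, at 259 in metformin and 301 in control cells. The Pclaf/Ube2c cluster, of 4 cells in each library, had 191 and 208, and the Il1r2/Ly6i cluster 132 and 64.5. No Itgae UMI was found in mature dendritic cells of either library. A thinned Treg had an Itgae UMI in 31.2% of metformin and 36.9% of control cells (38.0% and 43.0% before thinning), against 0.916% and 1.04% of microglia. Median depth was 6787 UMIs in metformin and 5792.5 in control Treg.

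**Figure D1:**
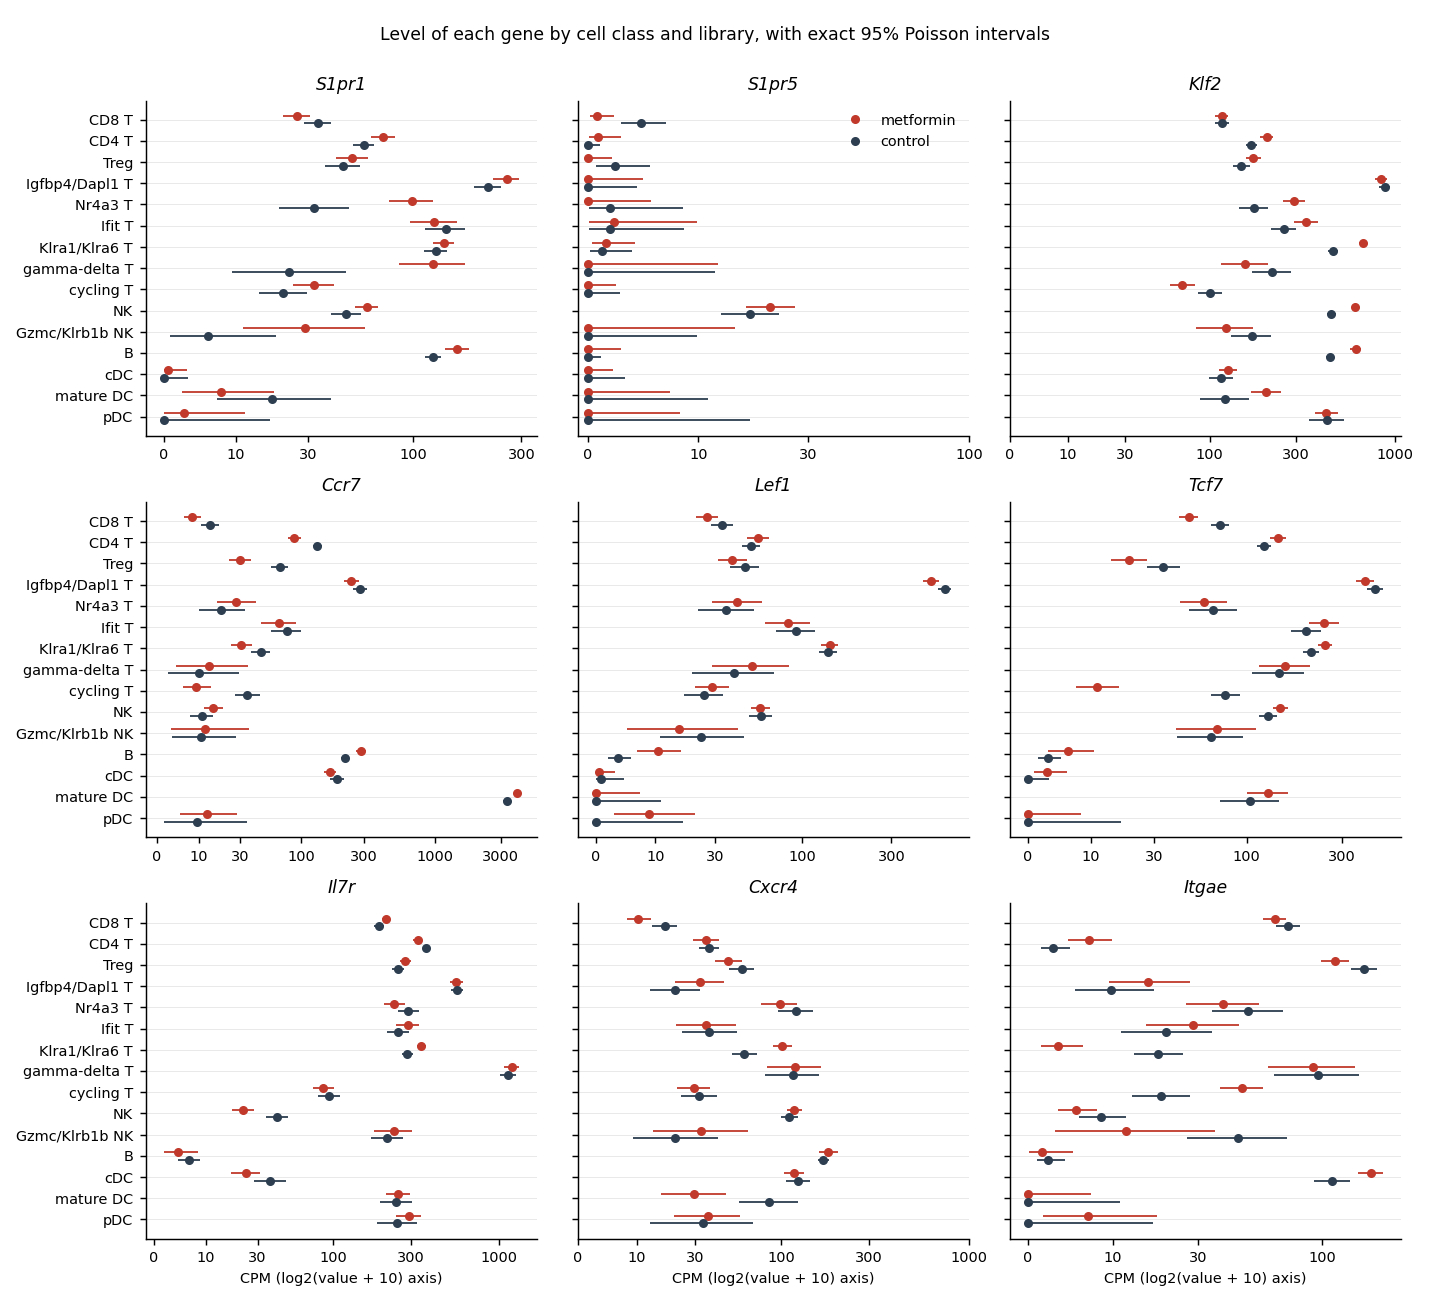
Each panel shows 1 gene as CPM (log2(value + 10) axis) in 15 cell classes, metformin red and above, control dark and below, with exact 95% Poisson intervals for counting error. S1pr1, Klf2, Lef1 and Tcf7 peak in Igfbp4/Dapl1 T cells, Ccr7 in mature dendritic cells, Il7r in gamma-delta T cells and S1pr5 in NK cells.

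Across the 18 named lymphoid clusters, S1pr1, Klf2, Lef1 and Tcf7 tended to be high and low together. Pearson's r of the cluster levels was 0.88 in metformin and 0.89 in control cells for S1pr1 with Lef1, 0.79 and 0.81 for S1pr1 with Klf2, 0.82 and 0.83 for S1pr1 with Tcf7, and 0.80 and 0.81 for Lef1 with Tcf7. The Spry2/Serpinb9 NK cluster stood off the pattern, with Klf2 at 933 CPM in metformin and 619 in control cells but S1pr1 at 49.8 and 60.3. These are descriptions over clusters that share a library and differ in depth. Il7r did not follow this group, with an r of -0.06 with Klf2 in metformin and -0.01 in control cells.

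Within a lineage the clusters split the set. Among CD4 T cells the Slamf6/S1pr1 cluster had Klf2 at 681 CPM in metformin and 663 in control cells, S1pr1 at 240 and 218, and Tcf7 at 353 and 333. The Csf1/Ifitm2 cluster had Tcf7 at 0 in metformin and 7.86 in control cells and S1pr1 at 12.3 and 8.57, yet kept Il7r at 551 and 580. The Ccl1/Penk cluster had Ccr7 at 136 and 227 with Klf2 at 44.1 and 38.1. So Il7r and Ccr7 were each high in a CD4 T cluster in which Klf2 was low.

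CD8 T clusters differed in Tcf7 and Itgae. The Dapl1/Cd8b1 cluster had Tcf7 at 213 CPM in metformin and 252 in control cells and Itgae at 4.28 and 18.9. The Gzmg/Gzmd cluster had Tcf7 at 9.27 and 9.43 and Itgae at 86.0 and 122. The Ccl3/Cd8a cluster was low in Tcf7 too, at 14 and 11.6, and had Itgae at 53.9 in metformin and 11.6 in control cells.

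Cxcr4 was high in clusters rich in Nr4a3, an early-response gene, in both NK and Klra1/Klra6 T cells. In NK cells the Spry2/Serpinb9 cluster had Cxcr4 at 241 CPM in metformin and 253 in control cells, against 44.0 and 32.5 in the Ncr1/Klra4 cluster, with Nr4a3 at 327 and 345 against 22.3 and 15.5. Among Klra1/Klra6 T cells the Klra1/Nr4a3 cluster had Cxcr4 at 210 and 131, against 66.5 and 52.3 in the Klra6/Klra1 cluster. Over the 18 clusters Cxcr4 had an r of 0.62 in metformin and 0.70 in control cells with Nr4a3, and 0.82 and 0.62 with Fos, a gene that also responds to tissue handling. The part of handling in these levels was not tested.

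**Figure D2:**
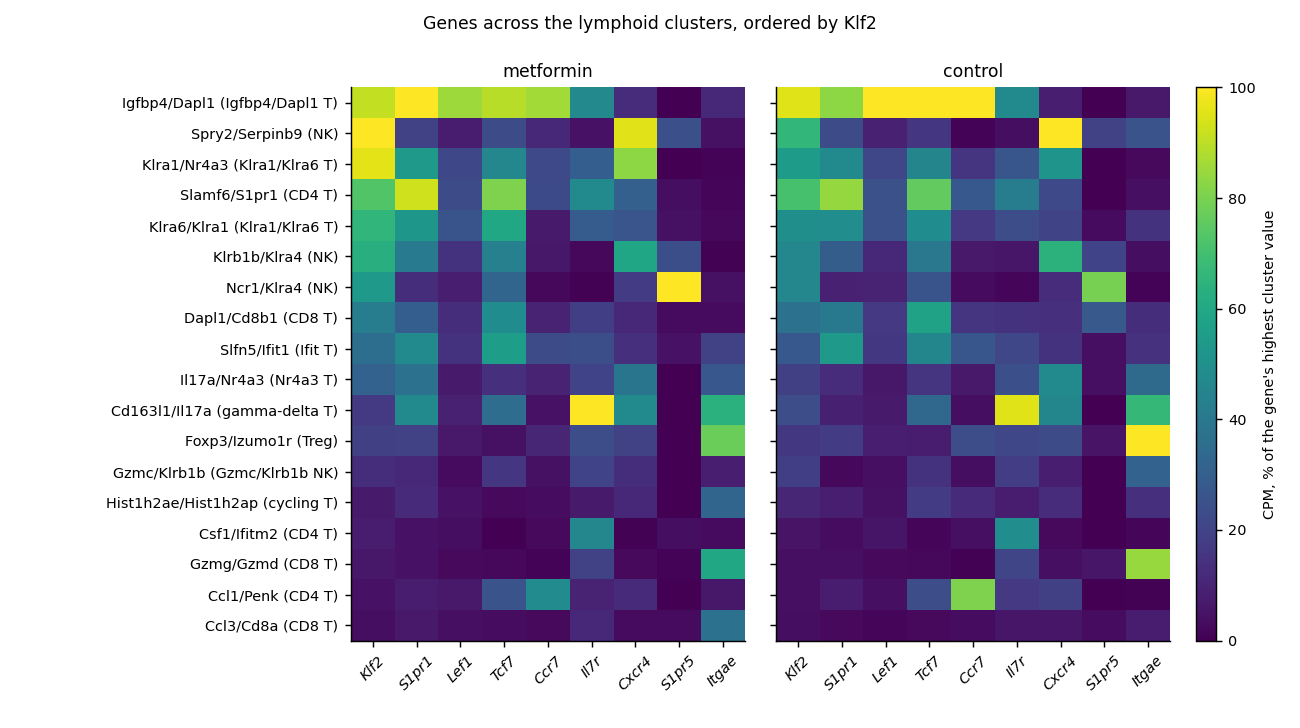
Levels of the 9 genes in 18 lymphoid clusters, metformin left and control right, each as a percentage of the gene's highest cluster value over both libraries and ordered by Klf2. Klf2, S1pr1, Lef1 and Tcf7 are all bright in the Igfbp4/Dapl1 row and the Spry2/Serpinb9 NK row is bright in Klf2 and Cxcr4, while Itgae is bright in Treg and in the Gzmg/Gzmd CD8 T cluster.

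The Igfbp4/Dapl1 T cells were made of both coreceptor lineages. Cells with a Cd8a or Cd8b1 UMI and no Cd4 UMI numbered 60 in metformin and 52 in control, and cells with a Cd4 UMI only 39 and 43. Lef1 was 362 CPM in metformin (312 to 418) and 366 in control (311 to 427) in the Cd8 cells. In the Cd4 cells it was 640 (544 to 748) in metformin and 700 (607 to 803) in control. Another 20 metformin and 30 control cells had neither coreceptor, with Lef1 at 544 and 691. The 5 and 14 cells with both had it at 993 and 798. Tcf7 stood at 331 and 329 in the Cd8 cells and at 438 and 507 in the Cd4 cells. Itgae had 14 UMIs in metformin and 10 in control Cd8 cells and none in the Cd4 cells of either library.

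The genes also met in the same cells. Among T cells outside the cycling class, thinned to 4000 UMIs with 176 metformin and 283 control cells left out as shallower, an S1pr1 UMI was found in 41.7% of 647 metformin cells with Klf2, against 13.3% of 863 without it. In control T cells it was found in 36.0% of 658 with Klf2 and 10.5% of 1014 without. Within CD4 T cells alone the shares were 45% with and 11.1% without Klf2 in metformin, and 43.2% and 7.72% in control. NK cells did not repeat this in both libraries: S1pr1 was in 20.1% of cells with and 18.4% without Klf2 in metformin, and in 20.6% and 9.09% in control.

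Over all T cells Itgae and Tcf7 UMIs tended to lie in different cells. A Tcf7 UMI was found in 5.81% of 172 metformin T cells with Itgae and 35.1% of 1338 without, and in 10.6% of 199 control T cells with Itgae and 33.3% of 1473 without. Within CD8 T cells Klf2 was found in 7.14% of cells with and 27.4% without Itgae in metformin, and in 10.3% and 26.9% in control. Il7r went the other way in CD8 T cells, at 61.4% with and 40.5% without Itgae in metformin and 61.5% and 34.2% in control. Gamma-delta T cells carried both genes, with Itgae at 92.4 CPM in metformin and 96.2 in control cells and Tcf7 at 157 and 146. All cells counted had the same 4000 UMIs. Differences between classes enter the shares over all T cells, and the mix of clusters enters those within a class.

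**Figure D3:**
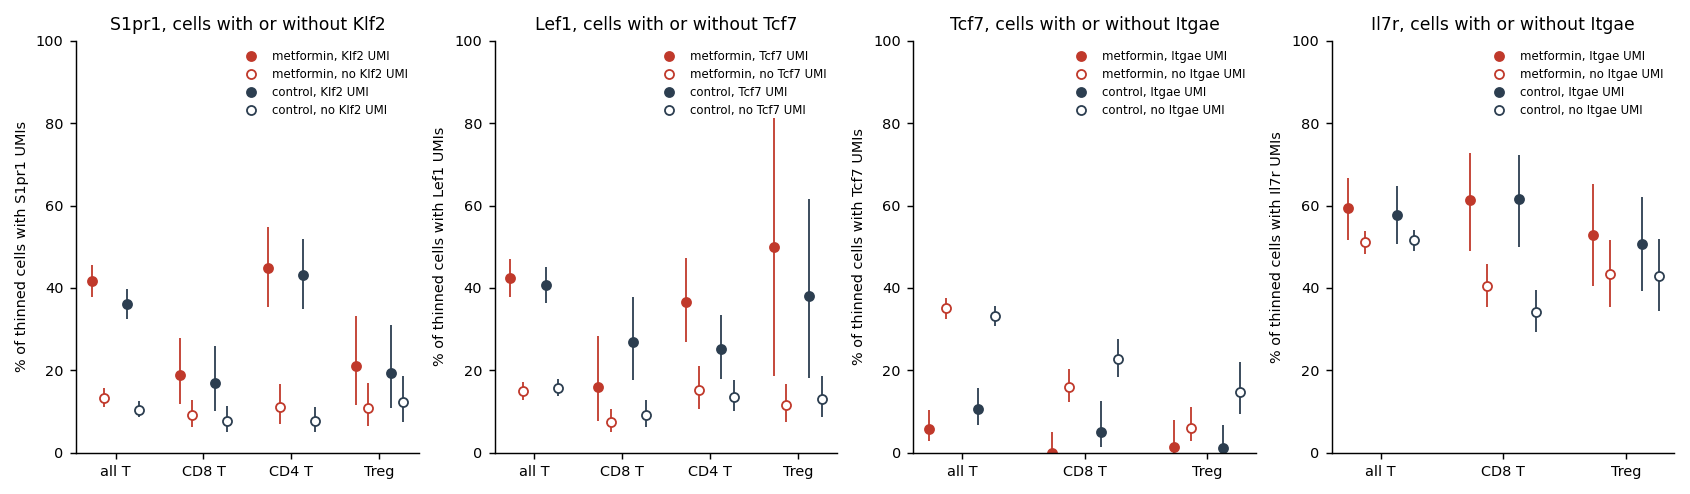
Share of thinned T cells (4000 UMIs each) with a UMI of S1pr1, Lef1, Tcf7 or Il7r, split by presence (filled) or absence (open) of a UMI of Klf2, Tcf7 or Itgae, metformin red and control dark, with exact 95% binomial intervals. S1pr1 is more frequent with Klf2, and Tcf7 less frequent with Itgae, in all T cells of both libraries.

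The promoters of the genes that moved together across clusters are given with that of Il7r, which did not follow them. RefSeq promoter windows (GRCm38.p6, 250 bases before to 50 after a start) matched 6 of the 9 genes, not S1pr1, Ccr7 or Itgae. Capitals mark the letters CACCC or GGGTG, bound by KLF factors, CTTTG or CAAAG, the core read by Tcf7 and Lef1, and GTAAACA or TGTTTAC, a Foxo site. In Lef1 a CTTTG and a GGGTG overlap by a base. The windows are Klf2 at chr8:72318812-72319111 (plus), Lef1 at chr3:131110047-131110346 (plus), Tcf7 at chr11:52282546-52282845 (minus) and Il7r at chr15:9529827-9530126 (minus).
Klf2: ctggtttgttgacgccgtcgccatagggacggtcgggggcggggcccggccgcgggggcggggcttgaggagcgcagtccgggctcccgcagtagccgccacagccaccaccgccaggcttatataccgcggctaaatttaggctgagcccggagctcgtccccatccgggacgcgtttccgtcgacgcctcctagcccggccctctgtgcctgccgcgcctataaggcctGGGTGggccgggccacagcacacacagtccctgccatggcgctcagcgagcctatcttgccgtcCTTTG
Lef1: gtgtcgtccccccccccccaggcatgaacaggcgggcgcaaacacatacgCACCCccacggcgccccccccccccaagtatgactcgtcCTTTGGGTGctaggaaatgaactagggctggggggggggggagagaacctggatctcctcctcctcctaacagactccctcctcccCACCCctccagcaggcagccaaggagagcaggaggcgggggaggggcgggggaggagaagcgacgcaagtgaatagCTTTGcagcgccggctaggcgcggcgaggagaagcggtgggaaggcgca
Tcf7: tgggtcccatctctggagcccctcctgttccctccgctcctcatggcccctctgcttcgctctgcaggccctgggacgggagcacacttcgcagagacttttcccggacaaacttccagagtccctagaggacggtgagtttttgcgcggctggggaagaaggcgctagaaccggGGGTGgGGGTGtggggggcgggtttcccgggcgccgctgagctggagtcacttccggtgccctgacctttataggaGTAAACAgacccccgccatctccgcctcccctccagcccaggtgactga
Il7r: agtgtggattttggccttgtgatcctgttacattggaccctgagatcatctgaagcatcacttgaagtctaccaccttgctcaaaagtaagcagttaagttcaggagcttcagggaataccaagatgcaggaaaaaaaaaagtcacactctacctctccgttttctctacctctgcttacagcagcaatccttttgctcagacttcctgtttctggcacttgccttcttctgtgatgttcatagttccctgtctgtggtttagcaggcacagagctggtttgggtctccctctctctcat
The Klf2 window holds 1 CACCC-type and 1 CTTTG-type match, the Lef1 window 3 and 2, this Tcf7 window, at the second of 2 RefSeq starts, 2 CACCC-type matches and 1 Foxo match, and the Il7r window none of the letters searched. Of 32851 promoter windows of the same length, 57.5% hold a CACCC-type and 53.9% a CTTTG-type match, so those matches are common. The Foxo letters are in 3.65%. The window at the first Tcf7 start, chr11:52282965-52283264, holds 2 CACCC-type matches and no Foxo match. The Lef1 window shown is at start 1 of 4 RefSeq starts, and the window at start 4 holds 1 CACCC-type and 3 CTTTG-type matches. The S1pr5 and Cxcr4 windows, not shown, hold 2 and 1 CACCC-type matches and none of the other letters. A match is only a description of the letters.

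By level over 11 classes in both libraries (22 points that share libraries, log2(value + 10)), the genes most like S1pr1 were Cmah (Pearson's r 0.91), Scml4 (0.89) and Ripor2 (0.87). Those most like Klf2 were Rasa3 (0.90), Foxp1 (0.88) and Ripor2 (0.88), and those most like S1pr5 were Klra8 (0.96), Klra4 (0.96) and Khdc1a (0.96). Lef1 was closest to Ndrg3 (0.90), Sidt1 (0.89) and Nsg2 (0.87), and Tcf7 to Utrn (0.92), Sidt1 (0.92) and Bzw2 (0.89). Ccr7 was closest to Cd2ap (0.87), Btla (0.85) and Mbtd1 (0.84), and Il7r to Klk8 (0.95), Bcl11b (0.91) and Cd3d (0.90). Ier5 (0.84) and Bcl10 (0.84) were among the 3 closest to Cxcr4, and Itgae was closest to Crip1 (0.84), Adam8 (0.84) and Twf2 (0.79).

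The comparison of metformin with control water asks whether these genes differ between the libraries within a class. Ratios are metformin over control of CPM, read where both libraries held 50 or more cells of a class (11 classes) and for genes with at least 20 UMIs over both. A ratio of at least 1.5, or its inverse, was called a change. Of 86 gene and class pairs that could be read, 10 were higher and 15 lower in metformin, and the interval left out 1 in 6 and 13 of them. Of all genes read, between 9.64% (CD8 T cells) and 20.7% (Ifit T cells) passed this threshold in either direction within a class. The median log2 ratio of the 86 was 0.01, against -0.01 to -0.06 for all genes read in each class.

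In CD8 T cells 4 of the 9 genes fell and 0 rose. Of all 9853 genes read in that class 5.27% fell and 4.37% rose. Tcf7 was at 48.3 CPM in metformin and 72.5 in control cells, a ratio of 0.666 (0.561 to 0.790). Ccr7 was at 7.82 and 13.9 (ratio 0.560, 0.365 to 0.853), Cxcr4 at 10.4 and 17.9 (0.582, 0.402 to 0.839), and S1pr5 had 3 UMIs in metformin and 17 in control cells (0.152, 0.0286 to 0.526, and up to 0.425 in the alternatives run). Klf2 had a ratio of 0.997, Lef1 0.790 and S1pr1 0.762. The Tcf7-rich Dapl1/Cd8b1 cluster made up 24.2% of metformin (20.4% to 28.4%) and 31.8% of control CD8 T cells. Inside that cluster Tcf7 was at 213 in metformin and 252 in control cells, and Ccr7 at 26.7 and 43.3. With CD8 T cells taken by a gate on transcripts instead, which brings in other clusters, Tcf7 had a ratio of 0.793, Cxcr4 0.873 and Ccr7 1.01, so none of these 3 passed. Tcf7 was near the threshold throughout, at 0.645 to 0.793 in the 9 alternatives run, and Ccr7 had a ratio of 0.973 under a mitochondrial filter of 5%. Of 20 other naive and central memory genes, all readable, 1 was higher (Igfbp4, with 35 metformin and 4 control UMIs, 80.0% of the metformin UMIs in 1 cell) and 1 lower in these cells, with a median log2 ratio of -0.08 against -0.03 for all genes read. The lower was Klf3, a relative of Klf2, at 16.6 and 25.6.

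In Treg 2 of the 8 genes read fell, Ccr7 and Tcf7, and 0 rose, where 8.53% of all genes read fell and 4.22% rose. Ccr7 was at 29.9 CPM in metformin and 66.6 in control Treg, from 69 and 142 UMIs in 24 and 53 cells, a ratio of 0.450 (0.332 to 0.604). Tcf7 was at 20.4 and 34.2, a ratio of 0.596 (0.404 to 0.871). The Ccr7 ratio stayed between 0.401 and 0.5 in the 8 alternatives run for it, and that of Tcf7 between 0.327 and 0.687. Klf2 had a ratio of 1.17 (1.01 to 1.36), S1pr1 1.11 (0.845 to 1.47) and Lef1 0.841 (0.625 to 1.13), all within 1.5-fold. Of 19 readable naive and central memory genes, 0 rose and 3 fell, Klf3, Il6ra (the interleukin 6 receptor, 18.2 and 29.5) and Actn1, with a median log2 ratio of -0.15 against -0.05 for all genes read. Of 14 effector genes, 4 rose (Klrg1, Gzmb, Prf1 and Ifng) and 1 fell (Eomes), with a median log2 ratio of 0.26. The same list moved in B cells, where 4 of 11 rose (Gzma, Gzmb, Ifng and Il2rb) and 0 fell, with a median of 0.28. In cycling T cells 4 of 14 rose and 3 fell (median 0.21), and medians in the other classes lay between -0.29 and 0.06. Of all genes read, 5.18% rose and 8.58% fell in B cells, and 6.84% and 10.8% in cycling T cells. In Treg Gzmb, the granzyme, was at 2431 in metformin and 1116 in control cells. Prf1, the pore protein perforin, was at 96.7 and 46.9 in Treg, and Ifng, a cytokine, at 54.6 and 30.5. Among 18 homing receptors Ccr9 rose and Cxcr5 fell, and Ccr9 was at 43.8 in metformin and 11.3 in control Treg. Foxp3 itself was at 336 and 320, Cd8a at 45.1 and 57.2, and Il7r at 278 and 253.

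CD4 T cells had 1 gene higher and 1 lower of 8 read, where 3.48% of all genes read rose and 7.53% fell. Ccr7 fell to 87.6 CPM in metformin against 133 in control cells (ratio 0.659, 0.570 to 0.761). Its ratio lay between 0.525 and 0.719 in the 9 alternatives run, on both sides of the threshold. Most of it sat in the Ccl1/Penk cluster, which had 136 and 227 and made up 35.1% of metformin and 37.4% of control CD4 T cells. Itgae had 20 UMIs in metformin and 11 in control cells, and 1 metformin cell held 60.0% of the 20; without the richest cell of each library the ratio was 1.37, under the threshold, against 2.80 with it, and other alternatives gave 0.793, 1.11 and 1.42. S1pr1 had a ratio of 1.24, Klf2 1.21 and Tcf7 1.18, all within 1.5-fold. The Slamf6/S1pr1 cluster that carries those genes made up 42.3% of metformin and 32.1% of control CD4 T cells. Of 19 naive and central memory genes 1 rose, Id3, a transcription regulator, at 30.6 in metformin and 16.1 in control cells, and 2 fell, Ramp1 at 31.9 and 85.0 and Myb with a ratio of 0.646. Of 17 homing receptors Cx3cr1 rose, at 154 and 70.1, and Ccr6 fell, at 29 and 56.9.

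Cycling T cells, led by histone genes, had 2 genes higher and 2 lower of 8, where 6.84% of all genes read rose and 10.8% fell. Tcf7 had 22 UMIs in 14 of 85 metformin cells and 126 UMIs in 19 of 76 control cells, a ratio of 0.146 (0.0886 to 0.231). The mean over cells gave 0.275, and the 5 richest cells held 59.1% of the metformin and 61.9% of the control UMIs. Ccr7 was at 9.22 CPM in metformin and 34.8 in control cells (0.265, 0.147 to 0.456, and 0.425 with variable genes from all genes). Itgae rose to 47.1 in metformin against 19.5 in control cells (2.41, 1.60 to 3.73), and S1pr1 was at 32.3 and 21.4 with an interval that holds 1 (0.983 to 2.35). Lef1 did not fall with Tcf7 and Ccr7, with a ratio of 1.15 (0.752 to 1.76), and Klf2 had a ratio of 0.686 (0.542 to 0.866). Of 19 naive and central memory genes 0 rose and 11 fell, with a median log2 ratio of -0.77 against -0.04 for all genes read. Among the 11, Igfbp4 had 0 UMIs in metformin and 28 in control cells, all in 4 control cells. Nsg2 had 2 and 30, and 5 control cells held 20 of the 30. The part of a few control cells in the fall of the list was not tested. Ramp1 was at 25.1 in metformin and 66.0 in control cells, and Myb, a transcription factor, at 33.3 and 63.5. Of the residence list 4 of 18 rose, Cd69, Itga1, Cxcr6 and Cdh1, with Itga1 at 70.7 and 30.5, and 2 fell. Coreceptors moved with these genes, with Cd8a at 462 in metformin and 219 in control cells and Cd4 at 63.5 and 90.4. The part of the mix of lineages among cycling cells in these ratios was not tested.

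**Figure D4:**
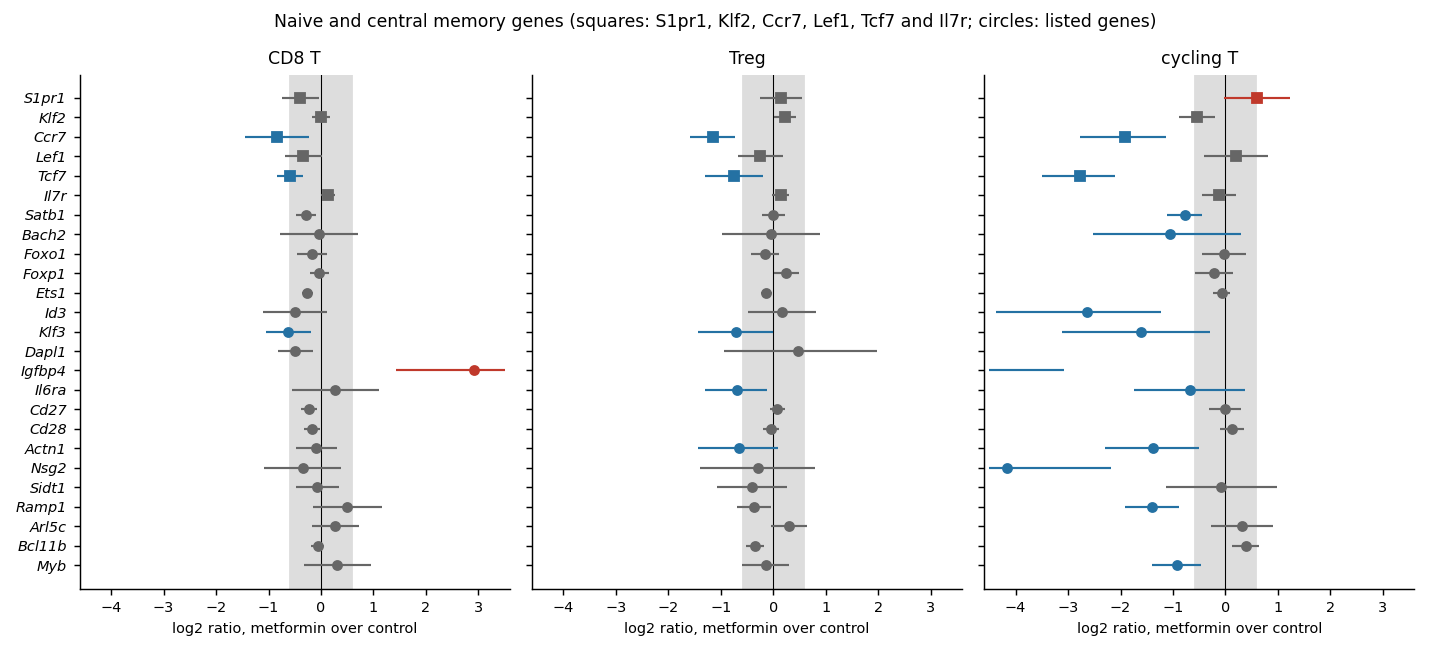
log2 ratio of metformin over control for 6 of the genes (squares) and 19 listed naive and central memory genes (circles) in CD8 T, Treg and cycling T cells, with exact 95% counting intervals cut at the axis ends and the grey band within 1.5-fold. Red passes the threshold upward and blue downward, a bar without a marker had 0 UMIs in metformin, and 10 of the 18 readable listed genes drawn are blue in cycling T cells.

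The other classes differed in how the naive and central memory list moved. In Klra1/Klra6 T cells 2 of 20 rose, Dapl1 and Cd28, and 1 fell, Igfbp4, with a median log2 ratio of 0.17. Igfbp4 had 11 UMIs in metformin and 21 in control cells of this class, and 5 control cells held 20 of the 21. In Ifit T cells 3 of 19 rose and 2 fell, with a median of 0.07, and the median in CD4 T cells was 0.04. In Igfbp4/Dapl1 T cells 1 of 20 rose, Id3, and 1 fell, Arl5c, with a median of -0.04. In Nr4a3 T cells 0 of 12 rose and 4 fell, Satb1, Ramp1, Arl5c and Myb, with a median of -0.04. NK cells had 0 of 17 called (median -0.04), and B cells had Cd28 and Bcl11b higher and Il6ra lower of 16 (median 0.04). In cDC 0 of 13 rose and 6 fell, Satb1, Foxo1, Ets1, Igfbp4, Ramp1 and Arl5c, with a median of -0.47. Igfbp4 had 2 UMIs in metformin and 21 in control cDC, and 1 control cell held 18 of the 21. The median over all genes read in these classes lay between -0.01 and -0.06. The shares of all genes read that rose and fell were 4.65% and 7.15% in Klra1/Klra6 T cells and 7.34% and 13.3% in Ifit T cells. They were 6.61% and 10.9% in Igfbp4/Dapl1 T cells and 7.45% and 11.3% in Nr4a3 T cells. NK cells had 4.74% and 4.92%, B cells 5.18% and 8.58%, and cDC 8.13% and 10.6%.

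Klra1/Klra6 T cells had 1 gene higher and 2 lower of 8, where 4.65% of all genes read rose and 7.15% fell. Cxcr4 rose to 101 CPM in metformin against 61.3 in control cells (ratio 1.66, 1.34 to 2.05), and its ratio lay between 1.57 and 1.91 in the 8 alternatives run. Early-response genes moved with it, with Fos at 365 in metformin and 212 in control cells and Nr4a2 at 219 and 142. The Klra1/Nr4a3 cluster, the higher in Cxcr4, made up 22.6% of metformin and 10.9% of control cells of the class. The part of these in the Cxcr4 ratio was not tested. Itgae fell, with 7 UMIs in 7 of 287 metformin cells and 43 UMIs in 16 of 265 control cells (0.146, 0.0555 to 0.328). Cdh1, the ligand of the integrin that Itgae forms, was named after its values were seen, and fell in the same class with 14 UMIs in metformin and 44 in control cells. Cd8a was also lower, at 55.9 in metformin and 90.8 in control cells. Ccr7 was at 30.5 and 45.9, a ratio of 0.666 that lay between 0.643 and 0.832 in the alternatives run.

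Nr4a3 T cells had 2 genes higher and 0 lower of 8, where 7.45% of all genes read rose and 11.3% fell. S1pr1 rose to 98.1 CPM in metformin against 32.5 in control cells, from 75 UMIs in 31 of 96 cells and 22 UMIs in 13 of 88 cells (ratio 3.02, 1.86 to 5.10). Klf2 rose with it, to 292 against 177 (1.65, 1.31 to 2.07). Clustering the libraries separately gave ratios of 1.39 for S1pr1 and 1.01 for Klf2, and neither passed, while a mitochondrial filter of 5% gave S1pr1 a ratio of 6.01. Il17a was among the leading genes of both Nr4a3 T and gamma-delta T cells. Gamma-delta T cells, too few to be called, had S1pr1 at 123 in metformin and 23.2 in control cells, from 36 and 7 UMIs. Cd69 in the same cells was at 291 and 594.

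Klf2 passed the threshold in no other of the 11 classes, but its ratio was above 1 in 8 of 11. It was 1.45 in Klra1/Klra6 T cells (1.34 to 1.56), 1.37 in B cells (1.27 to 1.48) and 1.35 in NK cells (1.26 to 1.44). Microglia, outside the classes compared, had 230 CPM in metformin and 129 in control cells, a ratio of 1.79. Fos, which moved with Klf2 in some of these, had a ratio of 1.72 in Klra1/Klra6 T cells, 1.67 in NK cells, 1.09 in B cells and 1.3 in microglia. The part of what moves Fos in the Klf2 ratios was not tested.

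NK cells had 0 genes higher and 2 lower of 9, where 4.74% of all genes read rose and 4.92% fell. Il7r was at 22.8 CPM in metformin and 42.1 in control NK cells, from 86 UMIs in 27 and 119 UMIs in 33 cells (ratio 0.542, 0.406 to 0.722). Cxcr6, a homing receptor of liver and tissue NK-type cells, was at 15.4 and 34.7. T cell genes moved with Il7r, with Cd3e at 13.3 in metformin and 24.8 in control cells and Cd8a at 6.37 and 24.8. Their part in the Il7r ratio was not tested, and the ratio was 1.44 when the libraries were clustered separately, 0.911 with variable genes from all genes and 0.836 with a mitochondrial filter of 5%. Itgae had 18 UMIs in metformin and 23 in control cells (0.587, 0.299 to 1.14), and it turned direction in 3 alternatives. S1pr5, the receptor NK cells share with the Ear2/Ace monocyte cluster, had a ratio of 1.22 (0.844 to 1.77).

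B cells had 2 genes higher and 1 lower of 7, where 5.18% of all genes read rose and 8.58% fell, all 3 on few UMIs. Lef1 had 17 UMIs in metformin and 13 in control cells, and 9 of the 17 were in 1 cell; the ratio was 3.59, and 2.01 without the richest cell of each library. Tcf7 had 9 UMIs in metformin and 11 in control cells, and Il7r 6 and 26, both with intervals that hold 1. The T cell marker list was at 121 CPM in metformin and 71.7 in control B cells, and its part was not tested. The genes well measured there stayed within 1.5-fold, with ratios of 1.33 for Ccr7 (1.18 to 1.48), 1.29 for S1pr1 (1.10 to 1.49) and 1.07 for Cxcr4 (0.927 to 1.22). The Ccr7 ratio lay above 1 in B cells, and below 1 in CD4 T, Treg, Igfbp4/Dapl1 T, Klra1/Klra6 T and cycling T cells, in every alternative run for them. It turned direction in at least 1 alternative in CD8 T, Nr4a3 T, Ifit T and NK cells and in cDC, with a ratio in Ifit T cells of 0.863, and of 1.10 without the richest cell of each library. The difference between classes was not tested.

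In cDC 0 genes were higher and 1 lower of 5, where 8.13% of all genes read rose and 10.6% fell. Il7r had 52 UMIs in metformin and 53 in control cells (ratio 0.644, 0.431 to 0.963), of which the Apod/Cd209d cluster held 32 and 17. Ccr7 was at 167 CPM in metformin and 188 in control cells, and 1 control cell held 70.8% of the control UMIs. Its ratio was 0.888, but 2.67 without the richest cell of each library and 2.33 with variable genes from all genes. Itgae had a ratio of 1.41, with the Xcr1 cluster at 34.1% of metformin and 18.2% of control cDC. The Cxcl10/Tgm2 cluster made up 11.6% and 19.2%, and the part of this mix in the ratios was not tested. C1qa, a microglia and macrophage gene, was at 53.6 in metformin and 389 in control cDC. In mature dendritic cells, too few to be called, Ccr7 had a ratio of 1.18 (1.10 to 1.28).

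The Igfbp4/Dapl1 T cells, in which 4 of the genes peak, had no called change with an interval that leaves out 1. Cxcr4 and Itgae were called higher (2 of 8, with 0 lower, where 6.61% of all genes read rose and 10.9% fell), on 29 and 15 metformin and 22 and 10 control UMIs, with intervals that hold 1. Klf2 had a ratio of 0.954, Tcf7 0.893, Il7r 0.987, Ccr7 0.860, Lef1 0.854 (0.753 to 0.969) and S1pr1 1.21. Ifit T cells had 0 of 8 called, where 7.34% of all genes read rose and 13.3% fell.

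**Figure D5:**
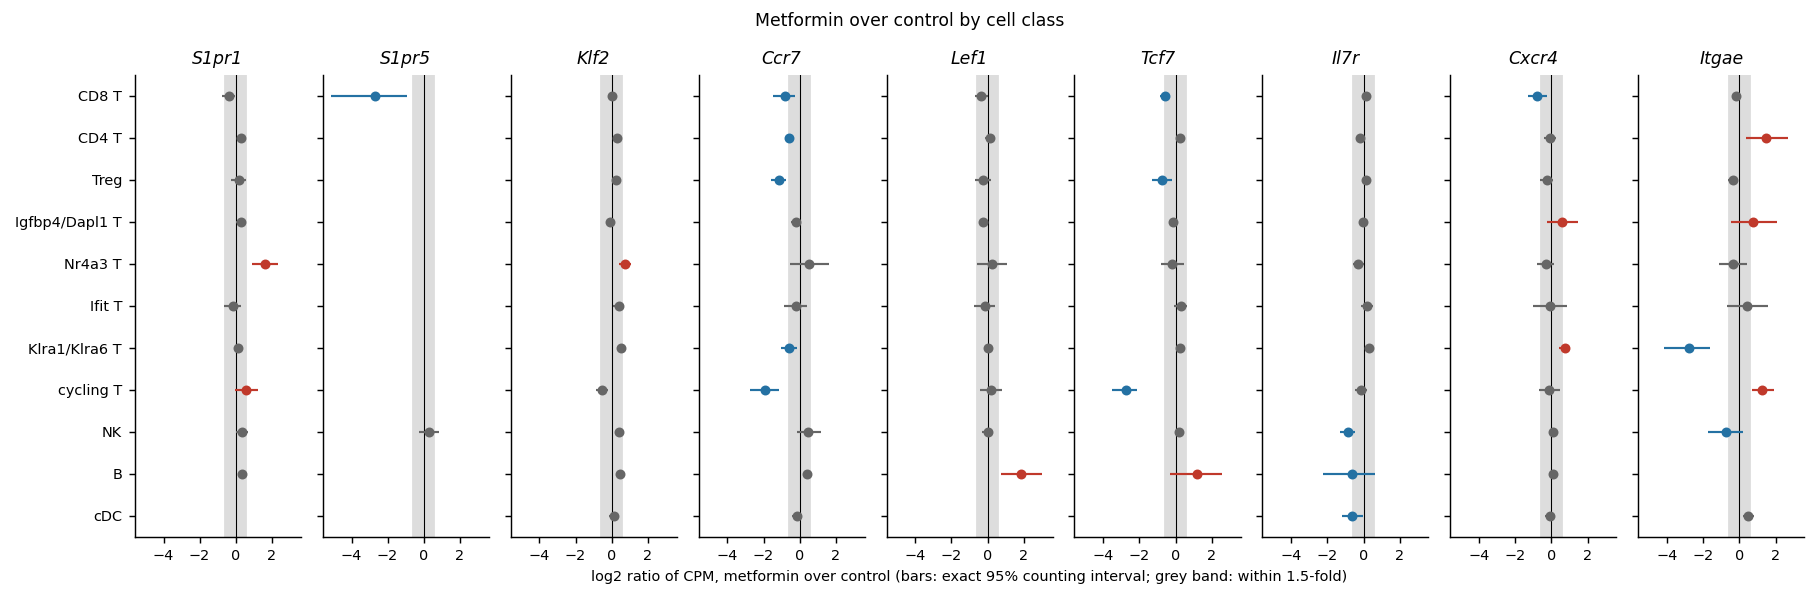
log2 ratio of metformin over control for each gene in the 11 compared classes, for pairs with at least 20 UMIs, with exact 95% counting intervals and the grey band within 1.5-fold. Red passes upward and blue downward; Ccr7 is blue in 5 T cell classes, and Klf2 is red in Nr4a3 T cells alone.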

How the data were processed

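Single-cell 3' RNA libraries (10x Genomics v3 chemistry, per the labels' protocols) were made from 1 metformin and 1 control sample. The deposited matrices hold UMI counts per gene and barcode, made by the authors with Cell Ranger on mm10 per the submitters' processing notes and with matrix software 3.0.0 per the file headers. Whether counting used strand is not stated there. The libraries held 47142356 and 49651404 UMIs in metformin and control.

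Barcodes with at least 300 genes and at most 10% mitochondrial UMIs were kept, doublets were called by Scrublet in scanpy 1.11.5 with 5% expected (37 metformin and 62 control cells, or 0.803% and 1.14%) and left out, and 2000 variable genes, without the 9 genes and the 109 genes of 8 lists, gave 30 components, 15 neighbours and Leiden clusters (leidenalg 0.10.2, resolution 1, or 1.5 in lymphoid cells). Dendritic cells were sub-clustered after the data were seen. UMIs were summed per class and library. With 1 library per group no model or test was fitted. Ratios have exact conditional intervals, levels exact Poisson and shares Clopper-Pearson intervals (95%, scipy 1.17.1), which cover counting error only, and the ratio code was tested on simulated data. Log2 ratios add 0.5 UMI.

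The genes and lists were chosen with earlier results of these data known. Named beside the 9 genes were, per list and class, up to 3 genes with ratios farthest from 1 among those with at least 100 UMIs, all genes of a list called where its count was 5 or fewer, and the 3 most alike genes, with at least 50 CPM in a class. Marker genes and early-response genes are given as context and were chosen after values were seen. The looser filter of 20% mitochondrial UMIs was also chosen after seeing the data. Some genes that these rules name are not reported here.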

Additional observations from a re-analysis of the deposited data

Results flagged for a closer look

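Cxcr4 was called in opposite directions in 2 T cell classes of the same comparison. Its ratio of metformin over control was 1.66 in Klra1/Klra6 T cells and 0.582 in CD8 T cells. The difference between the classes was not tested.

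Itgae was higher in metformin in CD4 T cells, with a ratio of 2.80, and in cycling T cells, with a ratio of 2.41, and lower in Klra1/Klra6 T cells, with a ratio of 0.146. The CD4 T value rests on 20 metformin UMIs of which 1 cell held 60.0%. The difference between the classes was not tested.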

How the results depend on the processing

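No paired analysis was possible because each group has 1 library, and no replicate could be left out. Of the 10 higher and 15 lower pairs of gene and class, separate clustering of each library gave 6 and 6 over 65 pairs, a fold of 2 gave 5 and 5, a mean over cells gave 15 and 9, and a minimum of 50 UMIs gave 6 and 12. The mitochondrial filter of 5% gave 7 and 10. It moved 20 of the 86 ratios outside their counting intervals, the most of the alternatives run, left 70 in the same direction and kept 15 of the 25 calls. It left 29 metformin and 35 control Igfbp4/Dapl1 T cells and 41 metformin Ifit T cells, under the minimum of 50. B cells were cut to 56 and 243, and Klra1/Klra6 T cells to 106 and 127. Before filtering, 15.6% of metformin and 11.8% of control barcodes had over 10% mitochondrial UMIs. The listed genes gave 64 higher and 102 lower pairs, and 27 and 43 at a fold of 2, with genes on several lists counted in each. Of all genes read in a class, 3.48% to 8.13% were higher and 4.92% to 13.3% lower at 1.5-fold. At a fold of 2 the shares were 0.907% to 2.34% and 1.06% to 3.95%. Calls that turned direction were Ccr7 in CD8 T cells (1.01 with the transcript gate), Itgae in CD4 T cells (0.793 with variable genes from all genes), Cxcr4 in Igfbp4/Dapl1 T cells (0.844 with 20% mitochondrial UMIs), and Il7r in NK cells (1.44 with separate clustering). Itgae in NK cells was 1.61 with variable genes from all genes, 1.75 with separate clustering and 1.59 with 5% mitochondrial UMIs, and Il7r in B cells was 1.05 with doublets kept and 1.26 with the gate. The cause was not tested. Separate clustering did not give Igfbp4/Dapl1 T cells, cycling T cells or cDC in both libraries, so their values are not among these. In every alternative run for them, S1pr5 in CD8 T cells, Ccr7 in Treg, Ccr7, Tcf7 and Itgae in cycling T cells, Cxcr4 and Itgae in Klra1/Klra6 T cells, and Lef1 and Tcf7 in B cells stayed past 1.5-fold. Counts near the minimum of 20 UMIs limit S1pr5, Itgae and the B cell calls.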

Other observations

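Outside the T, NK, B and dendritic classes, 6 metformin and 43 control neutrophils had Cxcr4 at 835 and 405 CPM. Klf2 in monocytes was 698 CPM in metformin and 546 CPM in control cells. In microglia S1pr1 was 38.4 CPM in metformin and 41.2 CPM in control cells.

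Bcl2, the survival gene downstream of Il7r, had a ratio below 1 in CD8 T (0.773), CD4 T (0.685), Treg (0.676), Klra1/Klra6 T (0.725), cycling T (0.744), NK (0.867), B (0.892) and Igfbp4/Dapl1 T cells (0.971) and cDC (0.794), all within 1.5-fold, and of 0.504 in Nr4a3 T cells (0.371 to 0.682), past it. In Ifit T cells it was 1.26 (0.899 to 1.75). Il7r had a ratio of 1.10 in CD8 T, 0.887 in CD4 T, 1.10 in Treg, 1.21 in Klra1/Klra6 T, 0.92 in cycling T and 0.542 in NK cells. It was 0.823 in Nr4a3 T (0.669 to 1.01), 1.14 in Ifit T and 0.987 in Igfbp4/Dapl1 T cells. In cDC it was 0.644, and in B cells 0.634 with an interval that holds 1.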
